A study of Drosophila melanogaster with 9 samples.

Results

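The genes described here encode proteins that act on heterochromatin, the compact and late-replicating part of the genome that is often left under-replicated in polyploid fly cells. There are 7 of them among the 17493 genes of the count table, chosen by symbol: *SuUR*, *Rif1*, *HP1a* (FBgn0003607, named by a suppressor of variegation symbol in the table), *Su(var)3-9*, *HP1b*, *HP1c* and *D1*. Counts above 0 were present for 6 of the 7, and all 6 were among the 9231 genes that passed the filter on low counts. mRNA was sequenced from *Drosophila* S2-DGRC cells, which were first cultured from embryos and have blood cell features, at 96 h of treatment with double-stranded RNA (dsRNA). CycA dsRNA targets Cyclin A, a partner of the mitotic kinase, and Myb dsRNA targets the Myb subunit of the Myb-MuvB activator of mitotic genes. The cells of these 2 groups are termed induced endoreplicating cells (iECs), because they copy their DNA without dividing. GFP dsRNA, against a protein that flies lack, made the mitotic cycling control, and each of the 3 groups had 3 biological replicates. All 9 libraries come from this 1 cell line, each group received a dsRNA, and no sorting by ploidy is described, so that each iEC library averages over whatever cells did and did not endoreplicate. Serum is listed at 12% for every library in the sample labels, whereas the study's methods describe different serum levels for S2 cells and iECs without placing the control in one or the other.

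In endocycling cells, heterochromatin replicates late and its replication forks may not finish before the next gap phase. SuUR (Suppressor of Under-Replication) is a chromatin protein known for slowing forks in such regions of the larval salivary gland, and Rif1, which binds protein phosphatase 1, acts with it there and also delays the replication of satellite DNA in the embryo. The other proteins mark or bind heterochromatin itself. Su(var)3-9 methylates histone H3 at lysine 9, HP1a reads that mark and packs the chromatin, HP1b and HP1c are its paralogs with a wider reach into euchromatin, and D1 binds AT-rich satellite DNA through AT-hook motifs.

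The libraries held 29128930 to 44280452 counts. They were checked by the targeted mRNAs. *CycA* stood at 24.1, 43.2 and 24.7 CPM (counts divided by the TMM-adjusted size of the library) in the CycA dsRNA libraries, at 262, 257 and 261 CPM in the Myb dsRNA libraries and at 186, 181 and 185 CPM in the GFP dsRNA libraries. *Myb* stood at 165, 164 and 169 CPM with CycA dsRNA, at 13.3, 15.1 and 12.8 CPM with Myb dsRNA and at 224, 203 and 219 CPM with GFP dsRNA. Each target was lowest in its own knockdown in all 3 libraries. Of 7 hemocyte and S2 cell markers, 5 averaged at least 1 CPM, while *Hml* and *NimC1* stayed under that level. The summed level of these 7 genes was 598 to 660 CPM with CycA dsRNA, 556 to 612 CPM with Myb dsRNA and 443 to 522 CPM with GFP dsRNA. Summed levels of other tissues' marker lists differed between the groups too: 3 muscle genes summed to 51.4 to 55.6, 18.6 to 19.2 and 8.6 to 12.4 CPM in CycA dsRNA, Myb dsRNA and GFP dsRNA libraries, with *Mhc* and *up* under 1 CPM, and 2 epithelial genes summed to 56.5 to 60.4, 128 to 134 and 47.6 to 61.8 CPM in the same order. In that order 3 germ line genes summed to 6.34 to 8.38, 11.6 to 12.9 and 4.25 to 4.58 CPM, and 3 neuronal genes, with *nSyb* and *brp* under 1 CPM, to 42.3 to 47.3, 37.2 to 38.9 and 28.4 to 35.0 CPM. The 3 fat body genes were all under 1 CPM. The part of these markers in the results below was not tested. CPM is a share of all counted mRNA, and in bulk libraries fewer cells that express a gene and less of its RNA per cell cannot be told apart.

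*SuUR*, the gene named for under-replication, could not be measured in these counts. It has 0 counts in each of the 3 CycA dsRNA, 3 Myb dsRNA and 3 GFP dsRNA libraries. The gene (FBgn0025355) lies on the plus strand of chromosome 3L at 11064991 to 11069025 of the Release 6 genome, in the BDGP6.54 annotation. A second gene, *CG45101* (FBgn0266540), is annotated with the same start, the same end and the same strand, and the 2 genes share all 3776 of their exon bases. *CG45101* also has 0 counts in all 9 libraries. The genes on either side were counted normally, with 12769 counts summed over the 9 libraries for *CG32075* and 14587 for *CG6310*.

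The same held for other genes in this position. Of 392 genes that share every exon base with another gene on the same strand, 391 (99.7%) had 0 counts in all 9 libraries, and the exception, *Uhg7*, had 535 counts in all. Of 121 genes whose exon bases are all shared, but on the opposite strand only, 22 (18.2%) had 0 counts, against 2248 of 11860 genes (19%) that share no exon base. The counts thus behave as if a read that falls in exons of 2 genes on one strand was given to neither, and as if reads of opposite strands were kept apart. The 0 of *SuUR* therefore carries no information on the level of *SuUR* mRNA in iECs or in control cells, no limit on that level was computed from it, and no comparison of *SuUR* between the groups was made.

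**Figure D1:**
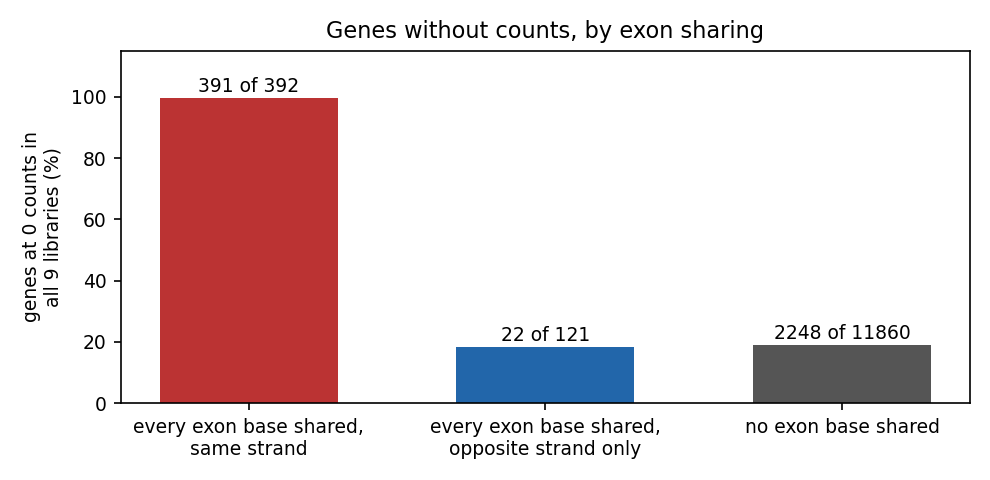
Share of genes, in percent (vertical axis), with 0 counts in all 9 libraries, for genes whose exon bases are all shared with another gene on the same strand, all shared on the opposite strand only, or not shared. *SuUR* is 1 of the 391 genes at 0 in the class on the left, where 99.7% are at 0, against 18.2% and 19% in the classes to its right.

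The other 6 genes were little or not at all affected by shared exons. *Rif1* (FBgn0050085, 2R, 15864309 to 15869147, minus strand), *HP1b* (FBgn0030082, X, 9081063 to 9082746, plus strand) and *D1* (FBgn0000412, 3R, 9238083 to 9240654, minus strand) share no exon base with another gene. *Su(var)3-9* (FBgn0263755, 3R, 15259864 to 15263458, minus strand) shares 352 of its 2386 exon bases with *eIF2gamma*, a translation factor gene that overlaps it, so its counts come from the remaining 2034 bases. *HP1c* (FBgn0039019, 3R, 22745620 to 22746605, plus strand) shares 160 bases and *HP1a* (FBgn0003607, 2L, 8209626 to 8211122, minus strand) 12 bases with genes on the opposite strand.

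To set levels of different genes side by side, CPM were divided by the kilobases of exon that are not shared on the same strand. In control cells *HP1a* was the highest, at 430 ± 7.16 CPM per kb (SD, n = 3, as for all means below), followed by *D1* at 156 ± 5.33, *HP1c* at 50.4 ± 3.74, *Rif1* at 43.3 ± 1.75, *HP1b* at 41.5 ± 1.7 and *Su(var)3-9* at 14.9 ± 0.397. On this scale *HP1a* ranked above 97.7% of 9163 genes in every library of all 3 groups, and *Su(var)3-9*, the enzyme whose mark HP1a reads, stood near the middle, between the percentiles 45.0 and 54.6. *Rif1* and *HP1b* did not differ beyond their spread in control cells or in CycA dsRNA iECs (39.6 ± 2.38 and 41.7 ± 1.49 CPM per kb). In Myb dsRNA iECs *Rif1* was clear of *HP1b*, at 72.8 ± 3.04 against 40.4 ± 0.873 CPM per kb, and stood below *HP1a* and *D1* alone.

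The purpose of the knockdown comparisons was to ask how cells in an endoreplication cycle differ from mitotic cells of the same type, and the direct comparison asks where the 2 kinds of iECs differ from each other. Fold changes are given as log2 values with their standard error (SE), and adjusted p-values are those of the edgeR quasi-likelihood test after Benjamini-Hochberg adjustment over 9231 genes. Calls follow the study's thresholds, which ask for an adjusted p under 0.05 together with a log2 fold change of 0.5 or more in either direction.

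In CycA dsRNA iECs *HP1c* and *D1* fell, and 4 of the 6 genes were not called. In Myb dsRNA iECs *Rif1* rose, and 5 were not called. Between the iECs, 4 genes, *Rif1*, *D1*, *HP1a* and *HP1c*, were lower in CycA dsRNA iECs than in Myb dsRNA iECs. These counts of 2, 1 and 4 of 6 stand beside 35.3%, 21.7% and 30.0% of all tested genes called in the same comparisons. No gene of the 6 was called higher with CycA dsRNA or lower with Myb dsRNA by edgeR or by DESeq2. At an unadjusted p under 0.05 and any size, 0 were higher with CycA dsRNA against either other group, and 1, *HP1c*, was lower with Myb dsRNA against GFP dsRNA. In the opposite directions, 5 were lower with CycA dsRNA against each other group, and 4 were higher with Myb dsRNA against GFP dsRNA. The median log2 fold change of the 6 was -0.37 with CycA dsRNA against GFP dsRNA, 0.19 with Myb dsRNA against GFP dsRNA and -0.62 with CycA dsRNA against Myb dsRNA, where the medians over all tested genes were -0.00, 0.01 and -0.02. The 2 comparisons with control share the GFP dsRNA libraries and so are not independent of each other.

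**Figure D2:**
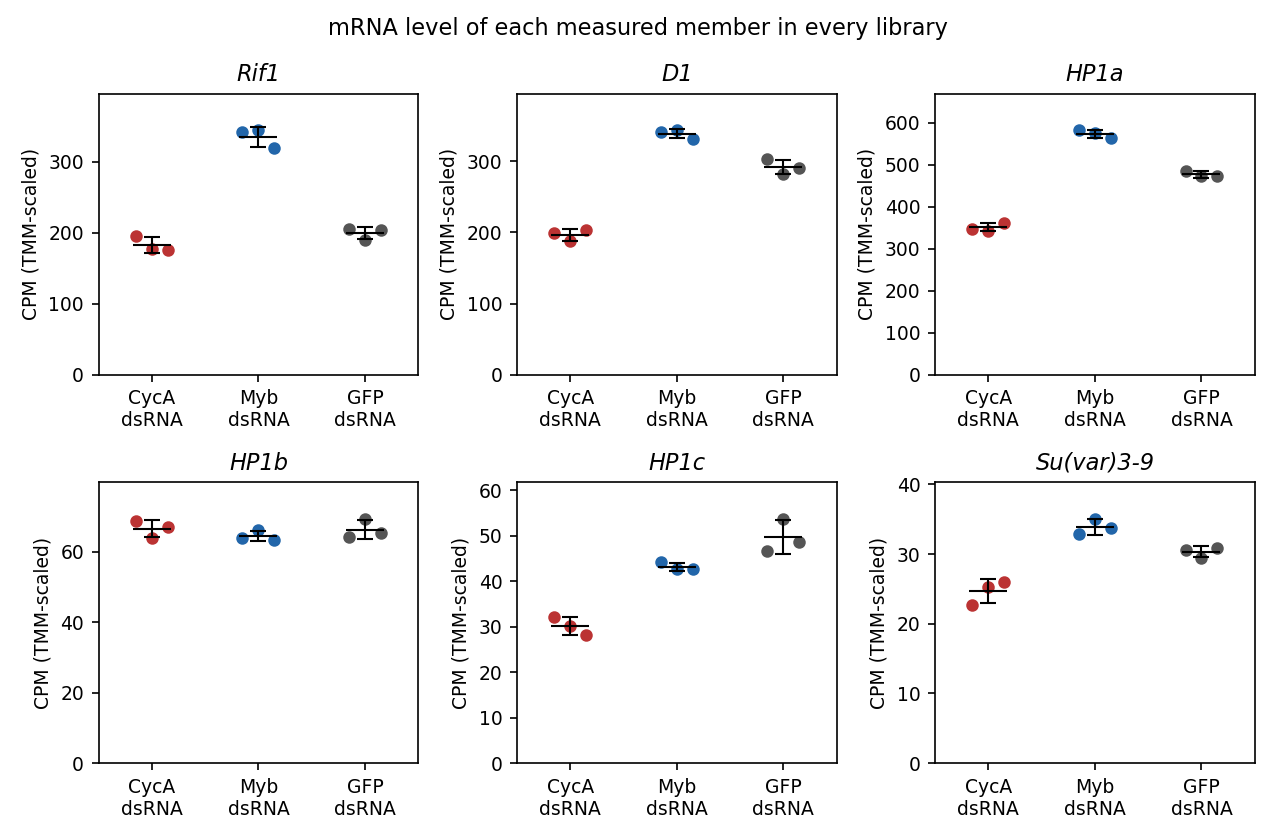
mRNA level in CPM (vertical axes, from 0, scale set per gene) of the 6 measured genes in each CycA dsRNA, Myb dsRNA and GFP dsRNA library (points), with mean and SD of 3 libraries (bars). *Rif1* stands at 319 to 344 CPM in the Myb dsRNA libraries, above all 6 others, *D1*, *HP1a* and *Su(var)3-9* have the order Myb dsRNA, GFP dsRNA, CycA dsRNA without overlap, and the 3 groups overlap for *HP1b*.

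*Rif1*, the partner of SuUR in under-replication, was the only one of the 6 called against control in Myb dsRNA iECs. It stood at 195.1, 177.1 and 175.2 CPM in CycA dsRNA libraries, at 342.4, 344.4 and 319.2 CPM in Myb dsRNA libraries and at 204.5, 190.3 and 203.9 CPM in GFP dsRNA libraries. All 3 Myb dsRNA libraries lay above the other 6, while the CycA dsRNA and GFP dsRNA libraries overlapped. The log2 fold change was 0.75 (SE 0.0525, adjusted p = 3.8e-08) with Myb dsRNA against GFP dsRNA, which is 1.68-fold. With CycA dsRNA against GFP dsRNA it was -0.13 (SE 0.0527, adjusted p = 0.039), under the fold threshold. That adjusted p was 0.056 and 0.085 by RLE and upper-quartile scaling, and 0.18 with a filter of 1 CPM. Without GFP dsRNA replicate 1, CycA dsRNA replicate 2 or CycA dsRNA replicate 3 it was 0.085, 0.12 and 0.13. By DESeq2 it was 0.035, and with a replicate block 0.031. The direct difference, CycA dsRNA against Myb dsRNA, was -0.88 (SE 0.0527, adjusted p = 2.4e-09), or -45.6%. The control libraries differed among themselves in a trend with gene length, and when that trend was removed with the level of each library left free the values with control were 0.50 with Myb dsRNA, still called, and -0.37 with CycA dsRNA, still not called. In that setting the medians over all tested genes were -0.14 with Myb dsRNA and -0.15 with CycA dsRNA. With levels kept the *Rif1* values were 0.64 with Myb dsRNA and -0.23 with CycA dsRNA.

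*D1*, the satellite DNA protein, had its lowest values with CycA dsRNA. It stood at 199, 188 and 203 CPM in CycA dsRNA libraries, at 341, 344 and 332 CPM in Myb dsRNA libraries and at 303, 283 and 291 CPM in GFP dsRNA libraries. No library of one group entered the range of another. With CycA dsRNA against control, *D1* fell by 0.57 on a log2 scale (a change of -32.7%, SE 0.0454, adjusted p = 4.4e-08). In Myb dsRNA iECs it was 0.21 above control (SE 0.045, adjusted p = 0.001), under the fold threshold. The direct difference was -0.79 (SE 0.0455, adjusted p = 1.6e-09). The fall against control was close to the threshold, with a 95% interval of -0.67 to -0.47, and it was lost when the test was made against a change of 0.5 itself.

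*HP1a*, which encodes HP1a, had the same order of groups as *D1*. It stood at 348, 344 and 362 CPM in CycA dsRNA libraries, at 583, 576 and 563 CPM in Myb dsRNA libraries and at 486, 472 and 473 CPM in GFP dsRNA libraries. The 3 groups did not overlap. Against control the log2 fold change was -0.44 (SE 0.0428, adjusted p = 3.6e-07) with CycA dsRNA and 0.27 (SE 0.0426, adjusted p = 0.00011) with Myb dsRNA, both past the p threshold and short of the fold threshold. Between the iECs it was -0.71 (SE 0.0429, adjusted p = 2.7e-09), a change of -38.8%.

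*Su(var)3-9*, the methyltransferase, was not called in any comparison. It stood at 22.7, 25.3 and 26.0 CPM in CycA dsRNA libraries, at 32.9, 35.1 and 33.7 CPM in Myb dsRNA libraries and at 30.7, 29.4 and 31.0 CPM in GFP dsRNA libraries. The groups did not overlap, in the same order as for *HP1a* and *D1*. The log2 fold changes were -0.29 (SE 0.0554, adjusted p = 0.00026) with CycA dsRNA against GFP dsRNA, 0.16 (SE 0.0537, adjusted p = 0.021) with Myb dsRNA against GFP dsRNA and -0.45 (SE 0.055, adjusted p = 4.4e-06) with CycA dsRNA against Myb dsRNA. The small value with Myb dsRNA against control was 0.02 (adjusted p = 0.76) with the length trend removed and levels free. In that setting the median over all tested genes was -0.14. With levels kept the value was 0.15 (adjusted p = 0.016). Its adjusted p was 0.056 by DESeq2. Without GFP dsRNA replicate 2, GFP dsRNA replicate 3, Myb dsRNA replicate 1 and Myb dsRNA replicate 2 it was 0.06, 0.068, 0.051 and 0.16.

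*HP1c*, the paralog found mostly in euchromatin, had its highest values in control cells, unlike *Rif1*, *D1*, *HP1a* and *Su(var)3-9*. It stood at 32.2, 30.1 and 28.2 CPM in CycA dsRNA libraries, at 44.3, 42.6 and 42.6 CPM in Myb dsRNA libraries and at 46.6, 53.8 and 48.7 CPM in GFP dsRNA libraries. The groups did not overlap. *HP1c* fell by 0.72 on a log2 scale with CycA dsRNA against control (a change of -39.4%, SE 0.0602, adjusted p = 7.5e-08), and was 0.20 below control with Myb dsRNA (log2 fold change -0.20, SE 0.0582, adjusted p = 0.0092), under the fold threshold. With Myb dsRNA the value was -0.13 under scaling by total counts (adjusted p = 0.071) and -0.09 with the length trend removed and levels kept (adjusted p = 0.1). Between the iECs the log2 fold change was -0.52 (SE 0.0606, adjusted p = 2.8e-06), just past the threshold. That call was lost without CycA dsRNA replicate 3, when the value was -0.47.

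*HP1b* was the one measured gene of the set with no difference at p under 0.05 in any comparison. It stood at 68.7, 64.0 and 67.2 CPM in CycA dsRNA libraries, at 64.1, 66.1 and 63.4 CPM in Myb dsRNA libraries and at 64.4, 69.5 and 65.3 CPM in GFP dsRNA libraries, and the groups overlapped in every comparison. The 95% interval of the log2 fold change was -0.09 to 0.10 with CycA dsRNA against GFP dsRNA, -0.14 to 0.05 with Myb dsRNA against GFP dsRNA and -0.05 to 0.14 with CycA dsRNA against Myb dsRNA. With the length trend removed and levels free, the log2 fold change was -0.126 with Myb dsRNA against GFP dsRNA (adjusted p = 0.0085). The median over all tested genes was -0.14 in that setting.

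**Figure D3:**
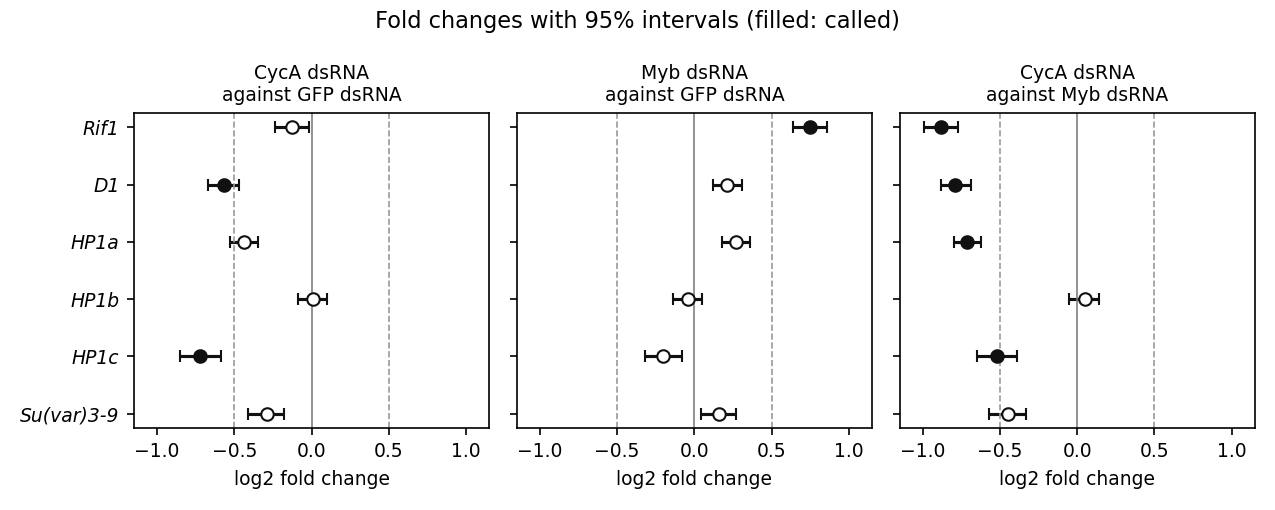
log2 fold change (horizontal axes) with its 95% interval for the 6 measured genes in the 3 comparisons. Filled points were called, solid lines mark 0 and dashed lines the threshold of 0.5 in size. *HP1c* (-0.72) and *D1* (-0.57) are the called points on the left, *Rif1* (0.75) is the one in the middle, and 4 genes between -0.88 and -0.52 are called on the right.

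By p-value alone, 5 of the 6 genes had an adjusted p under 0.05 in each comparison, beside 70.7% of all tested genes with CycA dsRNA against GFP dsRNA, 57.7% with Myb dsRNA against GFP dsRNA and 66.3% with CycA dsRNA against Myb dsRNA. The libraries of the groups did not overlap for 4, 5 and 5 of the 6 genes in these comparisons, beside 72.5%, 64.3% and 72.8% of all tested genes. Small differences between the groups were thus common across the transcriptome, and the sizes carry more than the p-values.

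The 3 HP1 paralogs differed in their response, so the makeup of HP1 mRNA did too. Of the summed CPM per kb of *HP1a*, *HP1b* and *HP1c*, *HP1a* held 81.4% ± 0.813 with CycA dsRNA, 86.0% ± 0.0583 with Myb dsRNA and 82.4% ± 1.04 with GFP dsRNA. *HP1b* held 10.7% ± 0.271 with CycA dsRNA, 6.71% ± 0.14 with Myb dsRNA and 7.95% ± 0.322 with GFP dsRNA, with no overlap between libraries. *HP1c* held 7.87% ± 0.607 with CycA dsRNA, 7.28% ± 0.104 with Myb dsRNA and 9.65% ± 0.715 with GFP dsRNA. HP1a mRNA was the bulk of the family in all 9 libraries, and per kb *HP1b* stood above *HP1c* in every CycA dsRNA library but below it in every control library and every Myb dsRNA library. That order rests on the annotated exon lengths, 1598 bases for *HP1b* and 986 for *HP1c*. Before division by length *HP1b* was the higher in all 9 libraries. *HP1c* counts were 0.453 ± 0.0288, 0.669 ± 0.023 and 0.748 ± 0.0251 times those of *HP1b* with CycA dsRNA, Myb dsRNA and GFP dsRNA.

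A ratio of 2 genes within a library does not depend on how libraries are scaled to each other. *HP1b* was taken as the denominator after its values were seen. Its own log2 fold changes with TMM were 0.01 with CycA dsRNA and -0.04 with Myb dsRNA against GFP dsRNA, and 0.05 between the iECs. Ratios to *HP1b* therefore had to come out near the TMM results, and they are no separate check of them. *HP1a* counts were 5.28 ± 0.177 times those of *HP1b* with CycA dsRNA, 8.9 ± 0.19 times with Myb dsRNA and 7.2 ± 0.379 times with GFP dsRNA. For *D1* the ratios were 2.95 ± 0.06, 5.25 ± 0.063 and 4.41 ± 0.318 in CycA dsRNA, Myb dsRNA and GFP dsRNA libraries, and for *Rif1* 2.74 ± 0.119, 5.2 ± 0.155 and 3.01 ± 0.239. All 3 ratios separated the iECs from each other without overlap, and only that of *Rif1* overlapped between CycA dsRNA and control. The exact permutation test over libraries, two-sided, gave p = 0.1 for the separated pairs, the smallest it allows with 3 against 3, and p = 0.3 for *Rif1* with CycA dsRNA against GFP dsRNA.

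Among themselves, *HP1a* and *D1* had the most similar profiles. The root mean square difference between their log2 CPM, each centred on its own mean over the 9 libraries, was 0.0576, and the largest, between *Rif1* and *HP1b*, was 0.413. By the same measure over the 7516 genes that averaged 50 counts or more, *Rif1* was nearest to *Cap-D3* (0.0502), a condensin II subunit, and *Orc1* (0.0532), a subunit of the origin recognition complex. *Cap-D3* had log2 fold changes of -0.11 with CycA dsRNA against GFP dsRNA and 0.81 with Myb dsRNA against GFP dsRNA, and *Orc1* had -0.17 and 0.68. *HP1a* was nearest to *cg* (0.0373) and *rig* (0.0382), *D1* to *Cnb* (0.0343) and *CG7154* (0.0369), and *HP1c* to *CG6094* (0.0333) and *CG13850* (0.0401). *Su(var)3-9* was nearest to *Mkp3* (0.0428) and *CG7504* (0.0483), and *HP1b* to *Ufc1* (0.0192) and *Npl4* (0.0248). These distances rest on 9 libraries in 3 groups and are a description only.

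Lists of other heterochromatin genes, written from general knowledge of their functions, place the 6 genes in their pathway. They were chosen with earlier results of these data known, so counts over them are a description and no independent test. The lists hold 42 further genes, of which 41 were in the table and 38 could be tested. With CycA dsRNA against GFP dsRNA, 10 of the 38 were called lower and 0 higher, with a median of -0.29, beside 14.1% of all tested genes called lower and 21.2% higher. With Myb dsRNA against GFP dsRNA, 3 were called higher and 0 lower, with a median of 0.16, beside 14.9% higher and 6.78% lower, and DESeq2 called 2 of the 38 higher. With CycA dsRNA against Myb dsRNA, 15 were called lower and 0 higher, with a median of -0.46, beside 14.5% lower and 15.4% higher. For the directions with 0 calls by edgeR, 3, 4 and 1 genes had an unadjusted p under 0.05 at any size, and DESeq2 called 0 of the 38 in each. In the opposite directions, 23, 21 and 32 of the 38 had an unadjusted p under 0.05. By adjusted p alone, in either direction, 70.7%, 57.7% and 66.3% of all tested genes passed in the same comparisons.

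**Figure D4:**
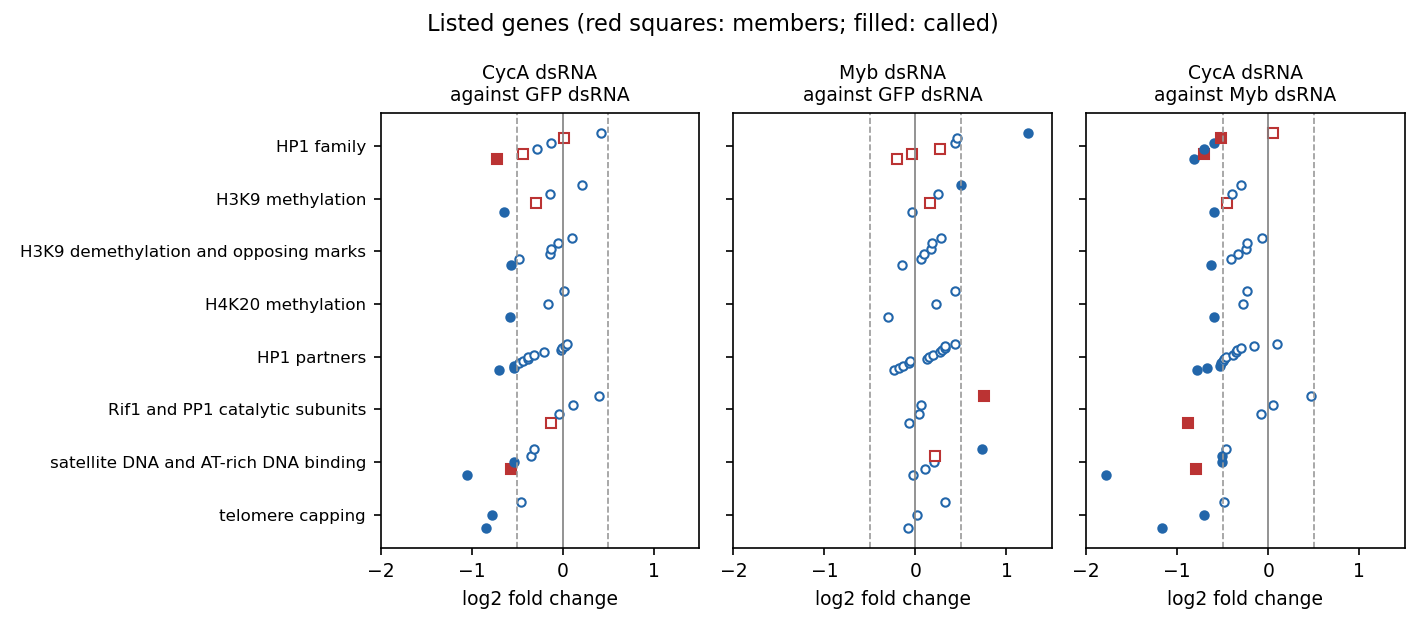
log2 fold change (horizontal axes) of each tested gene in 8 lists (rows) in the 3 comparisons, with the 6 measured genes as red squares, the other listed genes as blue circles, and called genes filled. Called genes lie to the left of 0 in the CycA dsRNA comparisons, where 10 and 15 other listed genes were called lower, and the lowest is *HmgD* (-1.78 with CycA dsRNA against Myb dsRNA).

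Among genes for AT-rich and satellite DNA binding, all 5 tested had negative log2 fold changes with CycA dsRNA against GFP dsRNA, where the median over all tested genes was -0.00. Of the 5, 3 were called lower, beside 14.1% of all tested genes. *D1*, *Trl* (-0.54, adjusted p = 9.4e-08) and *HmgD* (-1.05, adjusted p = 1.7e-10) fell, the last of these a high mobility group protein of the embryo's chromatin. *HmgD* averaged 326 ± 9.84 CPM with CycA dsRNA, 1119 ± 14.4 CPM with Myb dsRNA and 674 ± 31.3 CPM with GFP dsRNA. It rose by 0.73 in Myb dsRNA iECs (adjusted p = 2.1e-08), and was the one listed gene called in all 3 comparisons. *HmgZ*, its close paralog, had -0.32 with CycA dsRNA and 0.20 with Myb dsRNA against control, neither called, and -0.51 between the iECs (adjusted p = 5.8e-08). That call was lost in 6 alternatives, among them RLE scaling, a filter of 1 CPM and leaving out CycA dsRNA replicate 1 (-0.49). *Trl*, the GAGA factor, shares 4865 of its 6254 exon bases with other genes on its strand, so only part of it was counted. Its direct difference of -0.51 was called, and that call was lost in 7 alternatives. These were RLE scaling, every gene with a count, a filter of 1 CPM, only both groups fitted, and the test against a change of 0.5. The others were leaving out CycA dsRNA replicate 2 or Myb dsRNA replicate 3 (-0.50). The *Trl* call against control was lost with a filter of 1 CPM and in the test against 0.5.

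Of the telomere capping genes, *cav* and *HipHop*, both of which encode partners of HP1a at chromosome ends, fell with CycA dsRNA against control. Their log2 fold changes were -0.78 (adjusted p = 3.8e-08) and -0.84 (adjusted p = 3.4e-08), and they were lower with CycA dsRNA than with Myb dsRNA by -0.70 and -1.17. *HipHop* averaged 29.8 ± 0.911 CPM with CycA dsRNA, 67.0 ± 6.38 CPM with Myb dsRNA and 53.4 ± 2.43 CPM with GFP dsRNA. The third tested gene, *ver*, was not called in any comparison. *moi* shares all 2089 exon bases and, like *SuUR*, is listed at 0 in every library.

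Of the other HP1 family genes, *HP1D3csd* rose in Myb dsRNA iECs by 1.2 (adjusted p = 3.3e-09), at 10.5 ± 0.814 CPM with CycA dsRNA, 18.6 ± 0.525 CPM with Myb dsRNA and 7.89 ± 0.375 CPM with GFP dsRNA. *rhi*, known for its work in germ line piRNA clusters, and *HP6* were lower with CycA dsRNA than with Myb dsRNA, by -0.71 and -0.59, and were not called against control. With *HP1a*, *HP1c* and *HP1D3csd* (-0.82), 5 of the 6 tested HP1 family genes were called lower in CycA dsRNA iECs than in Myb dsRNA iECs, and *HP1b* was the other. Of all tested genes, 14.5% were called lower in that comparison. *HP6* had only 547 counts in all, and its call was lost in the test against a change of 0.5. The *HP1c* call was lost in 4 alternatives. *HP1e* had 23 counts in all and was not tested. The germ line markers had the same order of groups as *HP1D3csd*, highest with Myb dsRNA and lowest with GFP dsRNA, and their part in these values was not tested.

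Of the 13 HP1 partners tested, 3 were called lower with CycA dsRNA against control, beside 14.1% of all tested genes. These were *HP4* (-0.70, adjusted p = 8.4e-08), *Hmr* (-0.54, adjusted p = 2.3e-06) and *Su(var)2-10* (-0.53, adjusted p = 5.6e-08). With Myb dsRNA against control none was called by edgeR or DESeq2, beside 21.7% of all tested genes by edgeR. At an unadjusted p under 0.05, 8 of the 13 had positive and 2 negative log2 fold changes with Myb dsRNA. By an adjusted p under 0.05 alone, 9 of the 13 passed, beside 57.7% of all tested genes. The *Su(var)2-10* call was lost without GFP dsRNA replicate 1 (-0.50), by upper-quartile scaling, with a filter of 1 CPM and in the test against 0.5. The *Hmr* call was lost in the last 2 of these. With CycA dsRNA against Myb dsRNA, 4 of the 13 were called lower, beside 14.5% of all tested genes. They were *HP4* (-0.52, adjusted p = 2.3e-06), *Hmr* (-0.67, adjusted p = 2.3e-07), *woc* (-0.78, adjusted p = 9.2e-08) and *row* (-0.53, adjusted p = 1.8e-07). *woc* and *row* encode zinc finger proteins that form a complex with HP1c. The *HP4* call was lost in 3 alternatives and that of *row* in the test against 0.5. Against control, *woc* had -0.48 and 0.29 and *row* -0.38 and 0.15 with CycA dsRNA and Myb dsRNA, none of them called.

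Of the enzymes of histone H3 lysine 9, the methyltransferase gene *egg* fell with CycA dsRNA against control (-0.64, adjusted p = 7.8e-09) and was below its level with Myb dsRNA (-0.60, adjusted p = 1.8e-08). Its cofactor gene *wde* was called higher with Myb dsRNA at the threshold (0.50, adjusted p = 1.9e-05), and that call was lost in 10 of the alternatives. These were DESeq2, glmTreat, the fit of every gene with a count, both removals of the length trend (down to 0.25), and leaving out any of Myb dsRNA replicates 1, 2 or 3 or GFP dsRNA replicates 2 or 3 (down to 0.43). *HDAC1*, a histone deacetylase gene, fell with CycA dsRNA against control (-0.57, adjusted p = 1.9e-08) and was below its level with Myb dsRNA (-0.63, adjusted p = 7.2e-09). Among the genes of histone H4 lysine 20 methylation, *l(3)mbt*, which encodes a reader of that mark, fell with CycA dsRNA (-0.58, adjusted p = 9.1e-07), and *PR-Set7*, a methyltransferase gene, was lower with CycA dsRNA than with Myb dsRNA (-0.59, adjusted p = 2.3e-07). The calls of *HDAC1* and *l(3)mbt* against control and of *PR-Set7* between the iECs were lost under glmTreat alone.

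Rif1 recruits protein phosphatase 1, and the catalytic subunit genes did not share its rise. *Pp1-87B* had 0.04 and *Pp1alpha-96A* 0.06 on the log2 scale with Myb dsRNA against GFP dsRNA, with adjusted p-values of 0.42 and 0.41. *flw*, the beta-type subunit gene, had 0.40 with CycA dsRNA against GFP dsRNA (adjusted p = 8.3e-07) and 0.47 with CycA dsRNA against Myb dsRNA (adjusted p = 1.6e-07), both short of the fold threshold. *Pp1-13C* had 20 counts in all and was not tested.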

How the data were processed

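The authors made TruSeq Stranded mRNA libraries, checked the single-end reads with FastQC 0.11.5, aligned these to *Drosophila* Release 6 with STAR 2.6.1a and counted reads in exons by featureCounts. Its deposited output is a table of raw counts per gene, with no normalization, and exon lengths. The authors' deposited comparison tables hold DESeq2 1.14.1 fold changes and p-values, and these were not used. Groups and replicate numbers came from the sample titles. Libraries held 29128930 to 44280452 counts, with a common biological coefficient of variation of 0.0484 between replicates. In that table *HP1a* has the symbol *Su(var)205*.

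The tests were made with edgeR 4.0.16 in R 4.3.3 (expression filter with a minimum count of 10, TMM factors, quasi-likelihood test), with 1 model of 3 groups over all 9 libraries. The expression filter kept 9231 genes, including 6 of the 7 genes described. CPM were scaled with the TMM factors, and log2 CPM computed by edgeR used a prior count of 2. Profile distances were taken from log2 values of the TMM-scaled CPM, with a small constant added. Exon sharing was computed from the BDGP6.54 annotation, a later version than the authors', which matched 17372 genes by identifier, 98.9% of them with the deposited exon length. It was computed after the 0 of *SuUR* was seen. The scripts were tested on simulated data.

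Genes were named by rule: the 7 genes, the targeted genes, listed genes called in any comparison, the 2 nearest profiles of each gene and genes with overlapping exons. *Uhg7*, the neighbours of *SuUR* and the listed genes named without a call were added after values were seen. The 7 genes and the lists were chosen with earlier results of these data known. One listed symbol, *Hip*, was not matched. Alternatives changed the tool (DESeq2 1.42.0), scaling, filter, threshold, length trend, replicate block and libraries included. Other tissues of the study were not analysed here.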

Additional observations from a re-analysis of the deposited data

How the results depend on the processing

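Alternatives changed the tool, scaling, filter, groups fitted, threshold, gene length trend, replicate block and libraries, and scaling by total counts was chosen after seeing the data. With an adjusted p alone, 5 of the 6 genes were called in each kind of iEC against control, and 5 between the iECs. A glmTreat test against a change of 0.5 called 1 in CycA dsRNA iECs (*HP1c*) and 3 between the iECs. All other alternatives, single libraries left out included, gave 2 and 1 against control, and 3 to 5 between the iECs. There *HP1c* was lost without CycA dsRNA replicate 3, under glmTreat, with a filter of 1 CPM and with the length trend removed and levels kept, and *Su(var)3-9* was added under total counts (-0.57). Over all genes, the calls with an adjusted p alone were 6530 for CycA dsRNA iECs and 5329 for Myb dsRNA iECs against control, and 6123 between the iECs, beside 3255, 2005 and 2765 with the fold threshold. By glmTreat there were 2295 for CycA dsRNA iECs, 1181 for Myb dsRNA iECs and 1830 between the iECs. The sign of the *HP1b* value was not stable. With CycA dsRNA against GFP dsRNA it was -0.04 under total counts, -0.009 with every gene of at least 1 count, -0.016 with only both groups fitted, -0.084 with the length trend removed and levels free, and -0.047 to 0.032 with single libraries left out. With Myb dsRNA against GFP dsRNA it was 0.033 under total counts and 0.007 with the length trend removed and levels kept. With levels free it was -0.126 in that comparison (adjusted p = 0.0085). Between the iECs it was -0.072 under total counts. The median of all genes was -0.135 under total counts between the iECs, where it was -0.02 with TMM, and with free levels -0.15 for CycA dsRNA and -0.14 for Myb dsRNA against control, where it was -0.00 and 0.01 with TMM. Deviations of same-numbered replicates had weak correlations, of -0.0465 to 0.0969, beside -0.088 to 0.0364 for differently numbered ones. Between CycA dsRNA and GFP dsRNA, same-numbered pairs (0.037 to 0.0769) all lay above differently numbered pairs (-0.088 to 0.0253). In the other comparisons the 2 kinds of pairs overlapped. A pairing by number is thus not excluded, and the numbers were not used to pair the samples in the main model. By its columns, the count table numbers replicate 3 of CycA dsRNA and of Myb dsRNA as 4 and that of GFP dsRNA as 3, so these may not share an experiment. A replicate block by the title numbers called 2, 1 and 4 of the 6 genes and 3241, 1999 and 2758 genes in all. Depth limits *HP1e* and *Pp1-13C*, with 23 and 20 counts, and the counting of shared exons limits *SuUR*.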
